A study of Mus musculus with 3 samples.

Results

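A set of 10 genes of superoxide and hydrogen peroxide production and handling were described in 3 mouse pancreatic tumour cell lines of the HI-Panc progression model, with 1 RNA-seq library each. The 10 are the NADPH oxidase chains Nox1, Nox4, Duox1 and Duox2, the partner proteins Cyba, Noxo1, Noxa1, Duoxa1 and Duoxa2, and the extracellular superoxide dismutase Sod3. They were chosen by symbol with earlier results of these data known, so their levels are given as a description with no test. All 10 were found among the 22784 entries of the table, and 8 of them had a mean of at least 1 FPKM (fragments mapped, scaled by transcript length and sequencing depth) over the 3 libraries, as did 11404 genes in all. All 3 lines derive from tumours of p16-/- transgenic mice. HI-Panc-L stands for the localized stage and was labelled with body wall as its tissue. HI-Panc-I stands for the invasive stage, labelled pancreatic tissue, and HI-Panc-M for the metastatic stage, labelled liver. The tissue labels of the localized and invasive lines may be exchanged, which the sources used here do not settle, and the stage label was used for every library. The medium was DMEM containing 10% fetal bovine serum. A protocol text common to the 3 libraries describes hypoxic models given cobalt chloride at 100 ng/ml for 24 h, and no library labelled as untreated was analysed here. The labels do not say whether a line was 1 clone.

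NADPH oxidases move electrons from NADPH across a membrane to oxygen. Nox1, the oxidase of colon epithelium, forms superoxide and works with the membrane chain Cyba, the organizer Noxo1, the activator Noxa1 and a Rac GTPase. Nox4 needs Cyba but no organizer, releases mainly hydrogen peroxide and is common in fibroblasts and kidney. The dual oxidases Duox1 and Duox2 are calcium-regulated makers of hydrogen peroxide at the surface of thyroid, airway and gut epithelium, and each leaves the endoplasmic reticulum only with its maturation factor, Duoxa1 or Duoxa2. Sod3 is secreted, binds heparan sulfate in the matrix and turns superoxide into hydrogen peroxide.

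Depth was estimated at 45800000 (localized), 41200000 (invasive) and 43400000 (metastatic) fragments from the steps that whole fragments leave in low values. Summed levels of 12 epithelial markers were 1200 FPKM in the localized library, 6410 in the invasive and 6920 in the metastatic one, the order kept wherever 3 values follow each other, and those of 12 fibroblast markers were 1120, 111 and 14.4 FPKM. The keratins Krt8 (765, 2360 and 2250 FPKM) and Krt18 (227, 1130 and 977 FPKM) were above 200 FPKM in all 3 libraries. They gave a large part of the epithelial sums. Krt7 (0.793, 598 and 1080 FPKM) and Krt19 (181, 1970 and 2370 FPKM) were lowest in the localized library. So were Cdh1 (20.7, 218 and 118 FPKM), Muc1 (0.297, 111 and 112 FPKM) and Ocln (0, 14.1 and 17.6 FPKM). Epcam had 0.209, 1.31 and 2.63 FPKM and Cldn7 0.676, 1.33 and 0.244 FPKM, whereas Cldn4, Esrp1 and Grhl2 were under 0.1 FPKM in each library. Of 10 macrophage and neutrophil markers with values, 8 stayed under 1 FPKM in every library, among them the leukocyte antigen Ptprc (0.0172, 0.197 and 0.069 FPKM); Cd14 (84.8, 139 and 80.3 FPKM) and Cd68 (4.82, 10.5 and 9.93 FPKM) did not. All 8 endothelial markers were under 1 FPKM in every library. In whole-culture RNA, fewer cells of a type and less RNA per cell cannot be told apart.

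The next 2 stretches of genome are shown because the genes beside them had the largest increases in log2(FPKM + 1) over the localized library among the 10. The first is the 250 bases before the start of Nox1 on the minus strand (chrX:134111855-134112104, GRCm38.p6, RefSeq). It ends at the start of the GENCODE principal transcript and lies inside the longer gene span given for Nox1 below, which includes GENCODE transcripts that start farther upstream. The second is the 159 bases between the outermost RefSeq starts of Duox2 and Duoxa2, which are transcribed away from each other (chr2:122298741-122298899, GRCm38.p6, plus strand). Capitals mark exact matches to the motifs named after them, searched on both strands.

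Nox1: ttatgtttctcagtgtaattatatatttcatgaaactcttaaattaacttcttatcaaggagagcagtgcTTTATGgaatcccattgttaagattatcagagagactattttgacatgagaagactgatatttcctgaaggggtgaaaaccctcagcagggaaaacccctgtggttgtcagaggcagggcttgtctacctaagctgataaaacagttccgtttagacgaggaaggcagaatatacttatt

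Duox2-Duoxa2 gap: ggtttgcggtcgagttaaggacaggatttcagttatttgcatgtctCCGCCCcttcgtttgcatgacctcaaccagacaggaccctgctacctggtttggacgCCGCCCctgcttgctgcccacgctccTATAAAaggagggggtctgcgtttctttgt

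Of the 9 motifs searched, the Nox1 window held 1 match, TTTATG, a caudal-factor motif that starts 180 bases before the annotated start. This motif was in 10.8% of 32851 RefSeq promoter windows of 250 bases. The gap between Duox2 and Duoxa2 held GGGCGG (the Sp1 motif) on the minus strand, beginning 113 and 56 bases before the Duoxa2 start, and TATAAA, a core promoter motif, 30 bases before it. The matches in these 2 stretches do not overlap one another. Those 2 motifs were in 29.2% and 7.95% of promoter windows cut to the same 159 bases. Promoter windows were matched for 9 of the 10 genes, Sod3 being the exception. In windows of 250 bases the motif AGATAA (for factors of the GATA family, in 9.99% of all windows) was found for 2 genes, Noxa1 and Cyba, and CACCTG (for Snail and Zeb factors, 17.2%) for 3, Noxa1, Cyba and Duoxa2. GGGCGG (32.7%) was found for 5, Nox4, Noxo1, Cyba, Duoxa1 and Duoxa2, and TTCNNNGAA (STAT factors, 7.02%) for Nox4 alone. Duox2 is not among the 5 although the gap before its outermost RefSeq start holds GGGCGG, so its window was cut before another start. TGACTCA (AP-1, 4.46%), ACGTG (hypoxia response core, 16.6%) and TGACNNNGC (antioxidant response, 10.2%) were found in the window of none of the 9. Each motif was searched in 1 form only. Variants such as TGATAA, a string that the printed Nox1 window holds, were not counted for the GATA family. A match is a string of letters and not a measured binding site.

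Nox1 (GRCm38 chromosome X, 134086421 to 134221956, minus strand) was the most abundant oxidase chain in every library and went from a low to a very high level between the localized and the other 2 libraries. It had 2.73 FPKM in the localized, 343 FPKM in the invasive and 279 FPKM in the metastatic library. Among 22734 genes ranked by FPKM it stood at place 9919 for the localized line, 235 for the invasive line and 290 for the metastatic line. The invasive and metastatic libraries were both high and close to each other. The FPKM ratio to the localized library was 126 for the invasive library (95% counting interval 112 to 142) and 102 for the metastatic one (91 to 115), and the metastatic to invasive ratio was 0.812 (0.799 to 0.825). These intervals are exact binomial intervals on estimated fragments and cover counting error only, not the spread between cultures. Cstf2, a gene on the other strand, shares 399 of the 2563 bases of the Nox1 principal transcript and had 15.7, 64.3 and 56.6 FPKM. In the localized library Cstf2 was thus above Nox1 (2.73 FPKM). The use of strand in counting was not given in the sources at hand. The part of Cstf2 fragments in the Nox1 values, the low localized value included, was not tested.

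The 3 partners of Nox1 did not share one pattern. Noxo1 (chromosome 17, 24696234 to 24700529, plus strand), which assembles the complex at the membrane, had 3.30 FPKM in the localized, 27.5 FPKM in the invasive and 18.0 FPKM in the metastatic library. It was thus lowest in the localized library, as Nox1 was, with ratios to it of 8.34 (7.40 to 9.42) and 5.45 (4.82 to 6.17). A long transcript of Tbl3, on the other strand, covers 1347 of the 2238 bases of the Noxo1 principal transcript. Tbl3 had 22.2, 26.6 and 34.8 FPKM, highest in the metastatic library, and its part in the Noxo1 values was not tested.

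Noxa1 (chromosome 2, 25085667 to 25095149, minus strand), the activator that completes the complex, had 3.12 FPKM in the localized, 2.63 FPKM in the invasive and 10.5 FPKM in the metastatic library. Only the metastatic library was high, at 4.01 times (3.36 to 4.82) the invasive level. The invasive to localized ratio of 0.843 had a counting interval of 0.678 to 1.04, so these 2 libraries could not be ordered at this depth. Cyba (chromosome 8, 122424776 to 122432930, minus strand), the membrane chain that stabilizes Nox1 and Nox4, was abundant throughout with 122, 220 and 182 FPKM. Its ratios to the localized library were 1.81 (1.73 to 1.89) and 1.5 (1.43 to 1.57), under 2-fold.

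Levels within a library, in FPKM and so per transcript length, did not have the same order in the 3 libraries. In the localized library Nox1, Noxo1 and Noxa1 lay between 2.73 and 3.30 FPKM, and Cyba was 44.5 times as high as Nox1. In the invasive library Nox1 was 1.56 times as high as Cyba, 12.5 times as high as Noxo1 and 131 times as high as Noxa1. In the metastatic library the same ratios were 1.53, 15.5 and 26.4. The Noxo1 to Noxa1 ratio was 1.06, 10.5 and 1.71 in the 3 libraries.

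**Figure D1:**
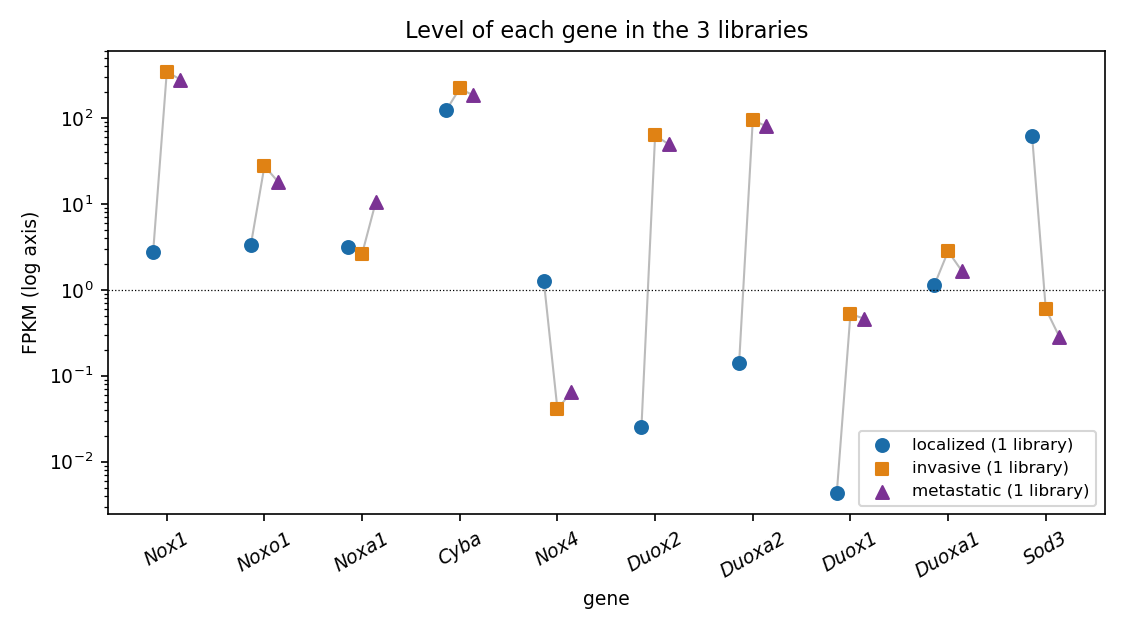
FPKM of the 10 genes (log axis) in the localized (circles), invasive (squares) and metastatic (triangles) library, 1 library each, joined by grey lines, with a dotted line at 1 FPKM. Nox1, Duox2 and Duoxa2 are low in the localized library and high in the other 2, Sod3 and Nox4 run the other way, and Noxa1 is high in the metastatic library alone (10.5 FPKM).

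Nox4 (chromosome 7, 87246096 to 87398710, plus strand) was low in all libraries and highest in the localized one. It had 1.28 FPKM there, 0.0407 FPKM in the invasive and 0.0644 FPKM in the metastatic library, or about 209, 6 and 10 fragments. The localized level was 31.5 times (14.1 to 86.2) the invasive and 19.9 times (10.6 to 42.0) the metastatic level. The invasive and metastatic libraries could not be ordered, with a ratio of 1.58 and an interval of 0.519 to 5.28. With a mean of 0.463 FPKM Nox4 did not pass the filter on low values and is not among the 8 genes counted at 2-fold below.

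Of the 2 dual oxidases, Duox2 was by far the more abundant wherever either was measured above trace level. Duox2 (chromosome 2, 122279247 to 122298449, minus strand) had 0.0250 FPKM in the localized, 62.6 FPKM in the invasive and 49.2 FPKM in the metastatic library. About 6 fragments lie behind the localized value, so the ratios of 2510 (1220 to 7220) and 1970 (958 to 5680) are imprecise. Its maturation factor Duoxa2 (chromosome 2, 122298900 to 122302885, plus strand) had 0.139, 94.0 and 79.7 FPKM, with about 9 fragments in the localized library and ratios to it of 675 (352 to 1460) and 572 (298 to 1240). Both genes were barely detected in the localized library and were abundant in the other 2, where Duox2 stood at places 1457 and 1880 and Duoxa2 at places 957 and 1122 of 22734 genes. Duoxa2 exceeded Duox2 by 1.5 times in the invasive and 1.62 times in the metastatic library.

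Duox1 (chromosome 2, 122315672 to 122347972, plus strand) followed the same order at a level under 1 FPKM. Its localized value of 0.00429 FPKM is that of 1 fragment, and its values of 0.524 FPKM (invasive) and 0.461 FPKM (metastatic) are those of about 109 and 102 fragments. The ratios to the localized library were 122 (21.3 to 4830) and 107 (18.9 to 4280). Duox2 was 119 times as high as Duox1 in the invasive and 107 times as high in the metastatic library. With a mean of 0.330 FPKM Duox1 did not pass the filter.

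Duoxa1 (chromosome 2, 122302191 to 122313730, minus strand), the partner of Duox1, was detected in all 3 libraries and differed far less than Duoxa2 did. It had 1.14 FPKM in the localized, 2.80 FPKM in the invasive and 1.66 FPKM in the metastatic library, with ratios to the localized library of 2.44 (1.82 to 3.28) and 1.45 (1.05 to 2). A Duoxa1 transcript shares 682 bases with the last exon of Duoxa2 on the other strand. None of these bases is in the Duoxa1 principal transcript, and the part of Duoxa2 fragments in the Duoxa1 values was not tested.

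The 4 dual oxidase genes form a block of 68727 bases, in the order Duox2, Duoxa2, Duoxa1, Duox1, and Duox2 and Duoxa2, the 2 of them that reached 10 FPKM in a library, are the divergent pair whose shared gap is printed above. The flanking coding genes were looked up by position after the values were seen. Sord, the sorbitol dehydrogenase gene 13909 bases beyond Duox2, had 19.5 FPKM in the localized, 128 FPKM in the invasive and 163 FPKM in the metastatic library. Shf, 920 bases beyond Duox1, had 12.1, 24.5 and 16.3 FPKM, and the nucleoside transporter gene Slc28a2 had at most 0.0308 FPKM. In log2(FPKM + 1), Sord thus passed 2-fold against the localized library in both comparisons (2.66 for the invasive library). Shf stayed within 2-fold on this scale, which compresses low levels (0.96 and 0.40), but its invasive value lay close to the threshold.

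Sod3 (chromosome 5, 52363791 to 52371418, plus strand) ran opposite to the epithelial oxidases. It had 61.8 FPKM in the localized library, 0.598 FPKM in the invasive and 0.283 FPKM in the metastatic library, about 10036, 87 and 44 fragments. The localized library stood far above the other 2, at 103 times (83.9 to 130) the invasive and 218 times (161 to 298) the metastatic level. The metastatic to invasive ratio was 0.474 (0.325 to 0.695). Sod3 made up 21.6% of the summed FPKM of the 3 superoxide dismutases in the localized library, against 0.138% (invasive) and 0.0551% (metastatic). The fibroblast markers, also highest in the localized library, had Bgn at 535, 19.1 and 0.354 FPKM and Dcn at 54.4, 0.0710 and 0.0142 FPKM, while Fap and Postn stayed under 0.05 FPKM in every library. The part of these cells or this programme in the Sod3 and Nox4 values was not tested.

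Differences were then set on one scale, log2(FPKM + 1), on which low levels are compressed, and called at 2-fold (1 on this scale) for genes past the filter. With 1 library per stage there is no replicate check and no p-value. For invasive against localized, Nox1 (6.53), Duoxa2 (6.38), Duox2 (5.95) and Noxo1 (2.73) were higher and Sod3 (-5.30) was lower, so 4 of the 8 genes past the filter were higher and 1 lower. Over all 11404 genes 8.78% were higher and 6.07% lower. Outside the threshold were Cyba (0.85), Duoxa1 (0.82) and Noxa1 (-0.18). The median over the 8 was 1.79, against -0.0014 over all genes.

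For metastatic against localized, 5 of 8 were higher, namely Nox1 (6.23), Duoxa2 (6.15), Duox2 (5.62), Noxo1 (2.14) and Noxa1 (1.49), and Sod3 was lower (-5.61). Over all genes 9.08% were higher and 7.29% lower. The gene nearest inside the threshold was Noxa1 and the nearest outside it Cyba (0.58). The median was 1.81, against 0.0041 over all genes. Both comparisons use the same localized library, so their likeness is no separate evidence.

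For metastatic against invasive, 1 of 8 was higher, Noxa1 (1.67), and 0 were lower. Over all genes 1.33% were higher and 1.67% lower. The other 7 lay between -0.59 (Noxo1) and -0.24 (Duoxa2), so each of them was lower in the metastatic library by less than 2-fold on this scale, on which the Sod3 ratio of 0.474 is compressed, at a median of -0.31 over the 8 against -0.0086 over all genes. Since the 10 genes were chosen with these contrasts known, nothing is read from their shares beside those of all genes.

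**Figure D2:**
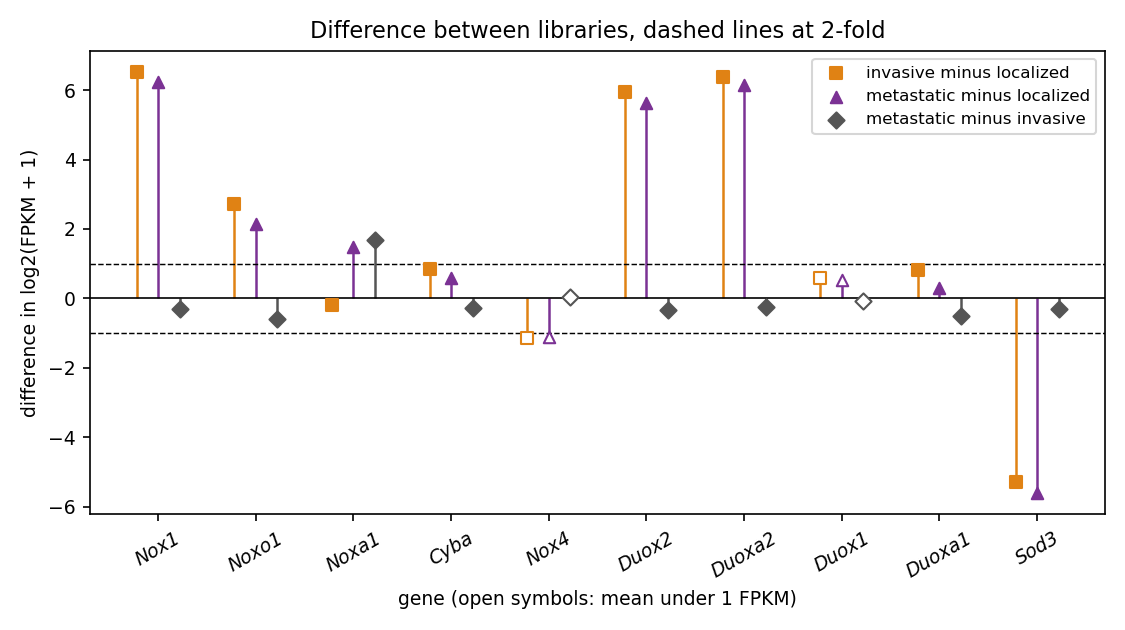
Difference in log2(FPKM + 1) for each gene and each pair of libraries, with dashed lines at 2-fold and open symbols for Nox4 and Duox1, whose means lie under 1 FPKM. Both differences from the localized library are above 5 for Nox1, Duox2 and Duoxa2 and below -5 for Sod3, while the metastatic minus invasive difference passes 2-fold for Noxa1 alone.

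**Figure D3:**
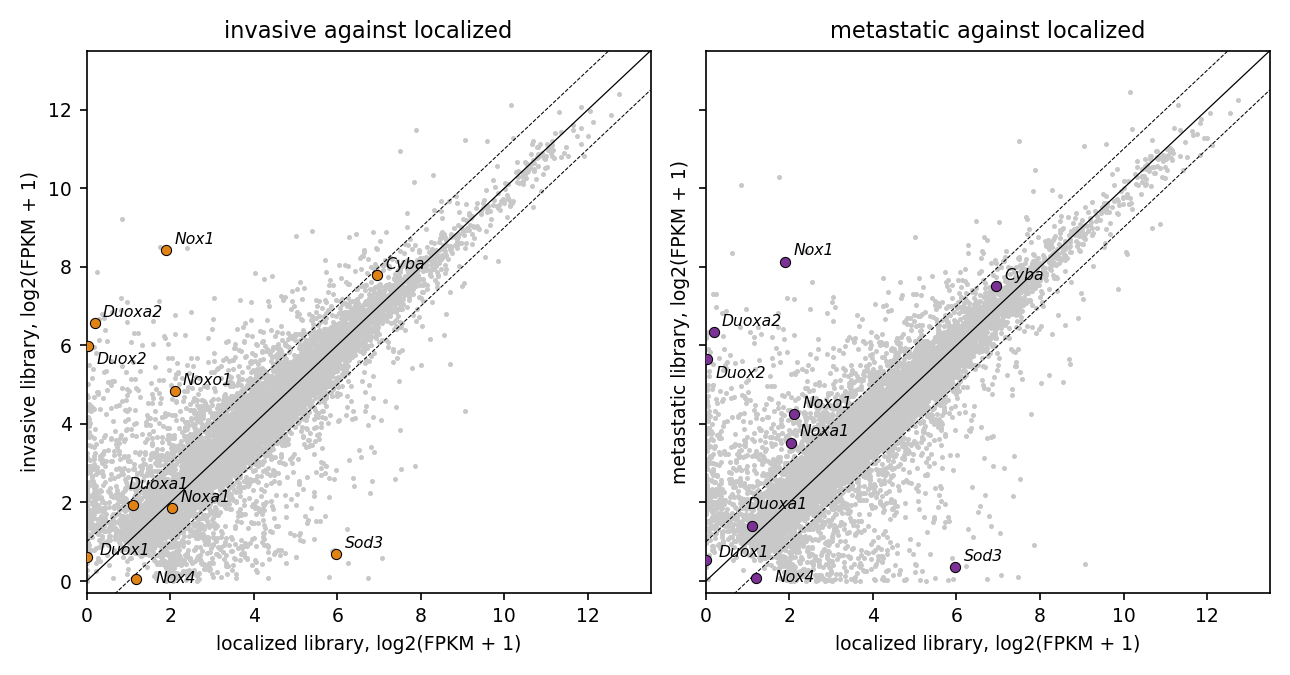
Level of 11404 genes (grey) in the invasive (left) and metastatic (right) library against the localized library, in log2(FPKM + 1), with the 10 genes named, a solid line at equality and dashed lines at 2-fold. Nox1, Duoxa2 and Duox2 lie at the upper left edge of the cloud, Sod3 at the lower right, and Cyba between the solid and the upper dashed line at a high level.

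The genes with the most similar pattern were sought among 10783 named genes past the filter, by the larger of the 2 gaps in the differences from the localized library. With 3 libraries this rests on 2 differences per gene and is a description only. Nearest to Nox1 were the membrane mucin Muc1 (largest gap 0.21), the phosphatase inhibitor Ppp1r1b (0.39) and the surface glycoprotein Plet1 (0.46). Muc1 is also among the epithelial markers above. Nearest to Duox2 were the tight-junction gene Cldn18 (0.13), the integrin activator Fermt1 (0.24) and Ppp1r1b (0.34), and nearest to Duoxa2 were Ppp1r1b (0.24), Muc1 (0.29) and Plet1 (0.31). The transcription factor Hes1 (9.11, 66.9 and 40.8 FPKM) and Mogat2, an acyltransferase of fat absorption (0.576, 9 and 6.41 FPKM), were within 0.10 of Noxo1. Nearest to Noxa1 were Abi3 (0.15), the glutathione transferase Gsta1 (0.17) and Nipal1 (0.24). Nearest to Cyba were Dnajc22 (0.0074), Tkt (0.0085) and Mycbp2 (0.012). Transketolase, Tkt, an enzyme of the pentose phosphate pathway, had 122, 220 and 183 FPKM. Nearest to Sod3 were Osr1, a zinc-finger transcription factor (0.26), Dkk2, a secreted Wnt inhibitor (0.30), and the collagen crosslinker Lox (0.39).

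The other oxidase genes were mostly low, with some exceptions. Cybb, the phagocyte oxidase chain, had 0.1 FPKM in the localized, 5.37 FPKM in the invasive and 0.719 FPKM in the metastatic library. Its cytosolic partner Ncf4 was at 0 for the localized line after 0.1 was subtracted from the deposited values, with 7.65 FPKM for the invasive and 1.84 FPKM for the metastatic line. The invasive library was the high one for both, whereas the partner Ncf1 stayed under 0.1 FPKM and Nox3 was likewise at 0 in all 3. Among the GTPases, Rac1 had 238, 197 and 279 FPKM, Rac3 7.64, 18.4 and 11.5 FPKM, and Rac2, the form of blood cells, at most 0.416 FPKM. Of 5 genes of this list of 8 past the filter, 3 were higher and 0 lower for invasive against localized (Cybb, Ncf4 and Rac3), where 8.78% of all genes were higher and 6.07% lower. For metastatic against localized 1 was higher (Ncf4) and 0 lower, where the shares of all genes were 9.08% and 7.29%. For metastatic against invasive 0 were higher and 2 lower (Cybb and Ncf4), where the shares were 1.33% and 1.67%. The list medians were 1.17, 0.53 and -0.64.

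Summed over the 6 catalytic chains, FPKM came to 4.14 (localized), 412 (invasive) and 329 (metastatic). Nox1 gave 65.9%, 83.4% and 84.7% of these sums and Duox2 0.603%, 15.2% and 15.0%. Nox4 gave 30.9% in the localized library and under 0.02% in both others. The sum thus consisted of Nox1 and Nox4 in the localized library and of Nox1 and Duox2 in the other 2.

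The remaining superoxide dismutases did not follow Sod3. Cytosolic Sod1 had 212, 419 and 499 FPKM and was higher than in the localized library by 0.98 (invasive) and 1.23 (metastatic) in log2(FPKM + 1), the second past 2-fold. Mitochondrial Sod2 had 12.4, 12.2 and 15.5 FPKM. The copper chaperone Ccs, which loads Sod1, had 41.2, 27.6 and 30.2 FPKM. Of the 7 genes of copper handling, Atox1 and Atp7a, which bring copper to secreted enzymes such as Sod3, had 179, 207 and 194 FPKM and 3.83, 3.67 and 3.69 FPKM. Of these 7 the copper pump Atp7b alone passed 2-fold, with 0.251, 5.88 and 8.70 FPKM and in both comparisons with the localized library, where 8.78% and 9.08% of all genes were higher. The medians over the 7 were 0.21 and 0.38.

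Of 17 enzymes that remove peroxide and passed the filter, 1 was higher and 1 lower for invasive against localized (median -0.15), where 8.78% of all genes were higher and 6.07% lower. For metastatic against localized 2 were higher and 1 lower (median -0.19), where 9.08% of all genes were higher and 7.29% lower. The medians over all genes were -0.0014 and 0.0041. The higher ones were the gut glutathione peroxidase Gpx2 (0.0246, 6.67 and 5.13 FPKM) in both and Prdx6 (72.5, 132 and 199 FPKM) in the second. The lower one was Gpx8, a peroxidase of the endoplasmic reticulum, with 100 FPKM in the localized, 27.2 FPKM in the invasive and 29.0 FPKM in the metastatic library. Catalase, Cat, had 46.6, 42.7 and 39.5 FPKM. Of 14 enzymes that make NADPH, 2 were higher for invasive against localized, H6pd (21.0, 61.4 and 59.7 FPKM) and the malic enzyme Me1 (31.4, 77.9 and 57.4 FPKM), 1 for metastatic against localized (H6pd) and 0 were lower in either, beside the same shares of all genes. The medians were 0.25 and 0.54. In metastatic against invasive, 0 genes of the peroxide and NADPH lists passed 2-fold, where 1.33% of all genes were higher and 1.67% lower.

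Heme peroxidases that could use the peroxide were at or near 0, with Mpo and Epx at 0 after the subtraction in all libraries and Lpo under 0.02 FPKM. The matrix peroxidase Pxdn was the exception with 28.6, 27.5 and 20.7 FPKM. Aquaporins, some of which let hydrogen peroxide pass, were lower outside the localized library for 2 of the 3 past the filter in both comparisons (medians -1.43 and -2.61), where 6.07% and 7.29% of all genes were lower. Aqp5 had 182, 6.20 and 5.01 FPKM and Aqp1 160, 58.9 and 25.5 FPKM, with Aqp1 also past 2-fold for metastatic against invasive (-1.18), and Aqp3, a well-known peroxide channel, had 1.16, 0.199 and 0.116 FPKM. Of 11 kinases, exchange factors and scaffolds that act on the oxidases, 2 were higher and 1 lower for invasive against localized (8.78% and 6.07% of all genes), with a median of 0.49. These were the Rac exchange factor Vav2 (4.98, 14.2 and 14.1 FPKM), the kinase Prkcd (15.6, 38 and 24.4 FPKM) and, lower, the organizer-like scaffold Sh3pxd2a (23.8, 10.9 and 12.9 FPKM). For metastatic against localized, Vav2 alone passed 2-fold, where 9.08% of all genes were higher and 7.29% lower, and the median was 0.35.

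Of 3 transcription factors described at the Nox1 promoter, all past the filter, 2 were higher in both comparisons with the localized library (medians 2.5 and 2.77), where 8.78% and 9.08% of all genes were higher. The caudal factor Cdx2 had 5.40, 35.2 and 70.6 FPKM and Gata6 had 0.384, 7.28 and 8.42 FPKM. Gata4 had 17.9, 23.7 and 24.5 FPKM. Cdx2 was highest in the metastatic library whereas Nox1 was highest in the invasive one. Their part in the Nox1 values was not tested.

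**Figure D4:**
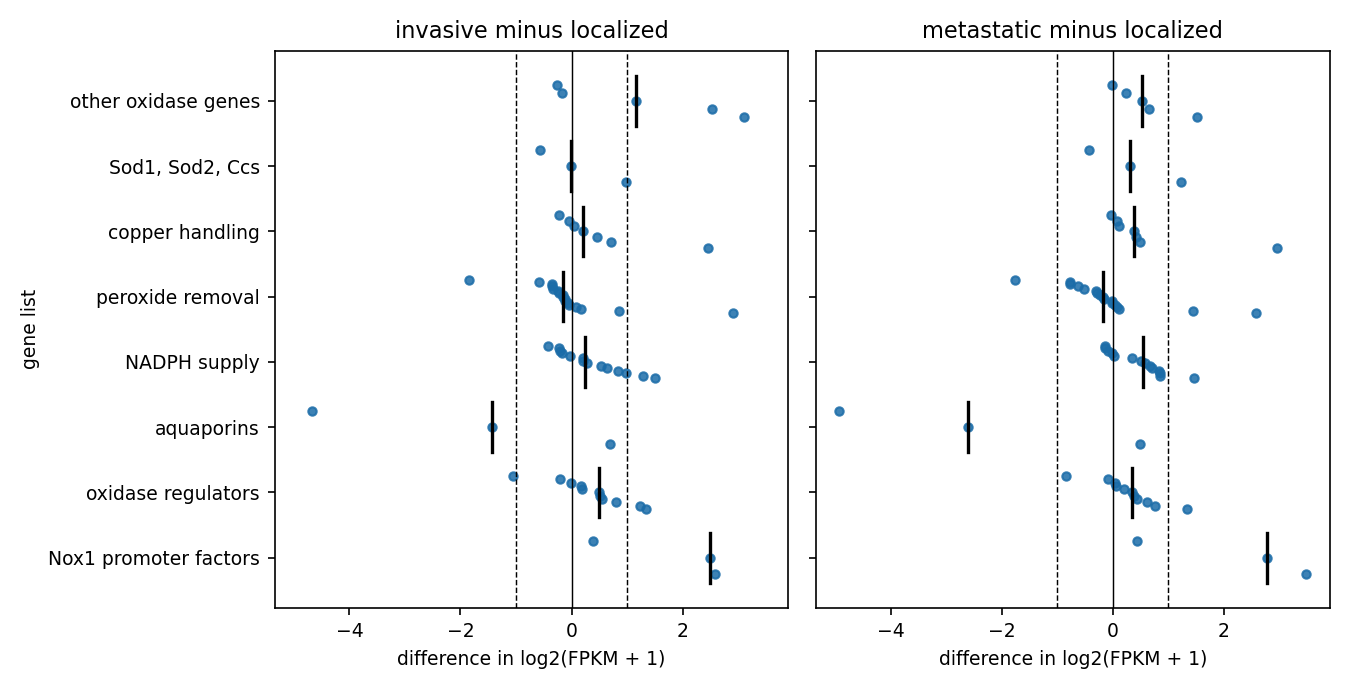
Differences in log2(FPKM + 1) from the localized library for the invasive (left) and metastatic (right) library, 1 point per gene past the filter in 8 gene lists, with black bars at list medians and dashed lines at 2-fold. Of the peroxide-removing enzymes, Gpx2, Gpx8 and, on the right, Prdx6 lie outside the dashed lines, and the lowest point in each panel is the aquaporin Aqp5.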

How the data were processed

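RNA-seq was made from 3 cell lines, 1 library per stage label, using 1 ug of RNA and a TruSeq RNA kit, per the labels' protocols. The authors deposited FPKM per gene symbol; STAR 2.5.2a, FastQC 0.11.2, Cufflinks 2.2.1 and GRCm38 are named in the submitters' processing notes without role or order. The lowest deposited value was 0.1 in each column, so 0.1 was subtracted. Left out were 27 entries with a date number as symbol and 23 short RNA genes; 1 further allele of the genotype label and a few other genes first placed in the lists are not reported here.

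Differences were taken in log2(FPKM + 1) with Python 3.11.15 and pandas 2.3.3 and called at 2-fold for genes with a mean of at least 1 FPKM. The rule was tested on simulated data with counting error only, in which well-expressed genes were changed by more than the threshold. That simulation does not cover low levels or the spread between cultures. With 1 library per group there was no test. Depth was estimated from genes with 1 transcript in GENCODE M21 (GRCm38), subtracting 187 to 202 bases from each length. Of such genes with about 1 to 5 fragments, 81.3% to 82.7% lay within 0.1 of a whole number. These include the genes used to fit the depth, so the share is no separate check. For genes with several transcripts the fragment number assumes the principal transcript. Intervals are 95% exact binomial (Clopper-Pearson).

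The 10 genes, 13 gene lists (124 symbols, 121 with values) and 9 promoter motifs were chosen with earlier results of these data known. Named from the lists were the genes past 2-fold other than cell-type markers. Some of the markers, of the most abundant genes and of those at 0 were also named, as were others to complete a list.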

Additional observations from a re-analysis of the deposited data

How the results depend on the processing

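No paired analysis was possible because each stage has 1 library, and for the same reason no library could be left out. Each of the 30 differences of the 10 genes was recomputed under 7 settings of pseudocount, filter, offset and scaling. Of 210 values, 204 kept their direction and side of 2-fold and 0 changed direction. The settings that change only the filter cannot move a difference, so part of the 204 was fixed in advance. With a pseudocount of 0.1 FPKM, Duox1 (2.58 and 2.43 against the localized library) and Duoxa1 (1.22 for invasive against localized) passed 2-fold. With 5 FPKM, Noxa1 for metastatic against localized (0.94) and Nox4 (-0.32 and -0.31 against the localized library) no longer did. Noxa1 stayed past 2-fold for metastatic against invasive (1.03). Without the filter, Nox4 joined Sod3 among the lower genes in both comparisons with the localized library. For metastatic against invasive the number of the 10 genes called was 0 with a 4-fold rule and 2 with a 1.5-fold rule (Noxa1 higher, Noxo1 lower) in place of 1.

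Counts over all genes (1693 and 1866 for the invasive and metastatic libraries against the localized one, and 343 between those 2) became 934, 1095 and 129 with a pseudocount of 5 FPKM, 1111, 1231 and 207 with a minimum mean of 5 FPKM, 612, 707 and 55 with a 4-fold rule and 3088, 3423 and 1010 with a 1.5-fold rule. The third became 600 with a pseudocount of 0.1 FPKM. Scaling to equal sums or upper quartiles moved the median of all genes by at most 0.044. Depth limits Duox1, Duox2 and Duoxa2 in the localized library and Nox4 in the other 2, where fewer than 11 fragments lie behind each value.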
